A study of Caenorhabditis elegans with 40 samples.

Results

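hsp-90 encodes the cytosolic HSP90 chaperone of Caenorhabditis elegans, and the genes ahsa-1, fkb-6, sgt-1 and sti-1 encode proteins that work with it. These 5 genes, of 19973 protein-coding genes, were taken as a set with earlier results of the same data known, and every deposited HSF-1 binding site within 1000 bp of one of their annotated protein-coding transcription start sites (TSSs) was taken. This gave 6 of 441 summits in heat-shocked animals and 5 of 500 in animals kept at 20 °C. HSF-1 is the transcription factor that drives the heat shock response in animals, and a summit is the point of highest signal in a peak of HSF-1 chromatin immunoprecipitation and sequencing (ChIP-seq).

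HSP90 is an abundant dimeric chaperone that folds late-stage clients such as kinases and receptors in a cycle driven by ATP. Co-chaperones steer that cycle: some bring clients over from HSP70, some set the rate of ATP hydrolysis, and immunophilins bind the complex during client maturation. HSP90 is also a known brake on HSF1 in other animals, and its gene is a classical target of the same factor.

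The animals were young adults in which endogenous HSF-1 carried an auxin-inducible degron and GFP (hsf-1::aid::gfp), and all groups, controls included, carried this fusion together with unc-119(ed3). Strain JTL611 also expressed the plant F-box protein TIR1 from the eft-3 promoter (ieSi57), labelled as TIR1 in the soma, and strain JTL621 expressed TIR1 from the sun-1 promoter (ieSi38), labelled as TIR1 in the germline. Animals of each strain spent 2 h on auxin plates, which depletes HSF-1 where TIR1 is made, or on ethanol plates as controls, and were then submerged in a 34 °C water bath for 30 min or collected directly at 20 °C. Each of the 8 HSF-1 groups, set by strain, plate and temperature, had 2 libraries, precipitated with an antibody to GFP.

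The deposited values were 1 list of control summits per temperature and 3 lists per temperature of summits lost on depletion. The authors' lists define 3 classes of site: soma, for those lost on depletion in JTL611, germline, for those lost in JTL621, and shared, for those lost in both. The lists hold no values per library, so neither the depth nor the spread between replicates is known, and the values below are descriptions with no test between the temperatures. Peak scores and differential scores are the authors' own numbers for each site. No source used here says what they are relative to, so each was read only against other sites of the same list. No genome or promoter sequence was used here, so no binding motif is shown.

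All 5 promoter sites belonged to the soma class at 34 °C and to the shared class at 20 °C. At these promoters HSF-1 was thus listed as lost on depletion in the soma at both temperatures, and as lost on depletion in the germline at 20 °C alone. A summit within 1000 bp of any protein-coding TSS is called a promoter summit or site below. Among the 129 promoter summits at 34 °C, 37.2% were in the soma class, and among the 190 at 20 °C, 40% were in the shared class. Of the 76 shared-class promoter sites at 20 °C, 27 were in the soma class at 34 °C (35.5%, exact 95% interval 24.9 to 47.3, counting error only). Another 28 were in the shared class at 34 °C, 5 had a summit in no class and 16 had no summit listed. Over all 242 shared-class sites at 20 °C, promoter or not, the share in the soma class at 34 °C was 12%. On chromosome V, which holds 4 of the 5 genes, lay 11 of the 27 sites (40.7%), those of the 4 genes included. The set was proposed with these classes known, so the full count of 5 is a description of the set and not evidence about it. With each summit given only to its nearest TSS, 2 genes, sti-1 and sgt-1, kept both classes, since a neighbouring gene's TSS was nearer to the fkb-6 summit at both temperatures, to the ahsa-1 summit at 34 °C and to the main hsp-90 summit at both. With only sites at or above the median peak score of their class, 282.9 for the soma class at 34 °C and 2079 for the shared class at 20 °C, hsp-90 alone kept both.

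The chaperone gene itself had the strongest site. The main summit of hsp-90 lay at position 14685798 on chromosome V at 34 °C and at 14685804 at 20 °C, a shift of 6 bp. By the annotation of WBcel235 it was 362 bp upstream of the downstream hsp-90 TSS at 34 °C and 356 bp at 20 °C, within the first intron of the longer transcript C47E8.5.2. Positions are the authors', whose build is not stated, and of the chromosomes of the set, V and II, their fit to this annotation was seen on V alone. Its peak score was 2535 at 34 °C, rank 233 of 441, and 4496 at 20 °C, rank 75 of 500. Among promoter sites of its own class it ranked 8 of 48 at 34 °C and 12 of 76 at 20 °C.

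At 34 °C hsp-90 had another summit, at position 14684884, which is 34 bp upstream of the TSS of C47E8.5.2. Its peak score of 171 ranked 396 of 441, and was 14.8 times lower than that of the main summit. It too was in the soma class, with a soma differential score of 35.2 over the region 14684606 to 14685116. The nearest common summit at 20 °C was the main one, 920 bp away. The 2 TSSs of hsp-90 lie 1242 bp apart, so at 34 °C each had a summit of its own upstream, and at 20 °C the downstream one alone did. The neighbouring gene C47E8.4, on the other strand, has a TSS 209 bp from this added summit, which falls in an intron of its longest transcript. Whether a weaker signal lay there at 20 °C was not tested.

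**Figure D1:**
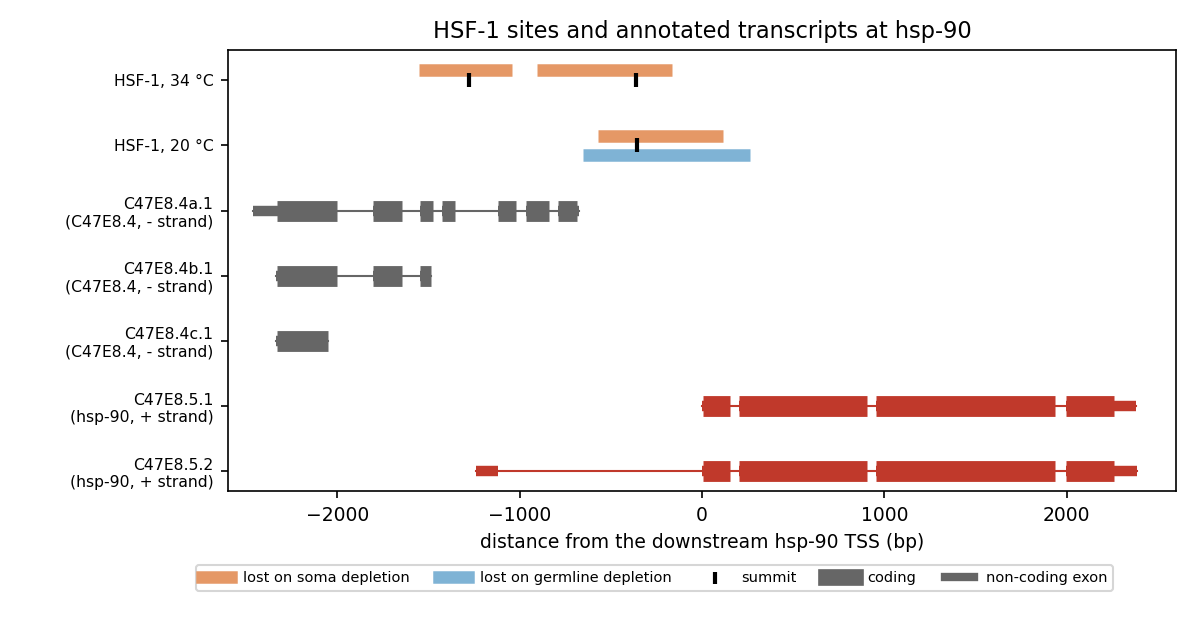
Map of the hsp-90 locus, with the distance from the downstream hsp-90 TSS in bp on the horizontal axis, HSF-1 summits as black ticks, regions lost on depletion as coloured bars, and annotated transcripts below. At 34 °C 2 common summits were listed, each in a region lost on soma depletion, and at 20 °C 1 was listed, in regions lost on soma and on germline depletion.

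sti-1 encodes the homologue of HOP, the adaptor that links HSP70 to HSP90. Its summit was the closest of the co-chaperone sites to a TSS, 46 bp upstream at 34 °C (position 773472 on chromosome V) and 52 bp upstream at 20 °C (position 773466). It was the only site of the set with the TSS of a single gene within 1000 bp, in intergenic sequence. The peak score was 183 at 34 °C, rank 389 of 441, and 693 at 20 °C, rank 211 of 500.

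sgt-1 encodes a small glutamine-rich tetratricopeptide repeat protein, a family that in yeast and mammals hands newly made membrane proteins on to their targeting factors and can bind HSP70 and HSP90. Its summit lay on chromosome II at 4904356 at 34 °C, 560 bp upstream of its TSS, and at 4904372 at 20 °C, 576 bp upstream. Both positions fall in the exon of an annotated non-coding RNA, R05F9.14. The peak score was 53.2 at 34 °C, rank 439 of 441, and 258 at 20 °C, rank 316 of 500. The lowest peak score of any summit at 34 °C was 40.8, close to the sgt-1 value. On chromosome II the fit of the coordinates to the annotation was seen at neither temperature, and the distances to sgt-1 rest on that fit.

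fkb-6 encodes an immunophilin of the FKBP family, with a peptidyl-prolyl isomerase domain and tetratricopeptide repeats. Its summit lay in intergenic sequence on chromosome V, at 20845731 at 34 °C and 20845725 at 20 °C, which is 427 and 433 bp upstream of its TSS. The divergent neighbour F31D4.2 was nearer, with its TSS 185 bp away at 34 °C and 179 bp at 20 °C. The peak score was 252 at 34 °C, rank 368 of 441, and 495 at 20 °C, rank 247 of 500.

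ahsa-1 encodes the homologue of AHA1, which in yeast and human cells stimulates the ATPase of HSP90. Its summit lay in intergenic sequence on chromosome V at 15085575 at 34 °C and at 15085564 at 20 °C, 190 and 179 bp upstream of its nearer TSS. The divergent gene C01G10.7 started 172 bp away on the other side at 34 °C and 183 bp at 20 °C, so the summit sat near the middle between the pair. The peak score was 126 at 34 °C, rank 415 of 441, and 401 at 20 °C, rank 267 of 500.

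**Figure D2:**
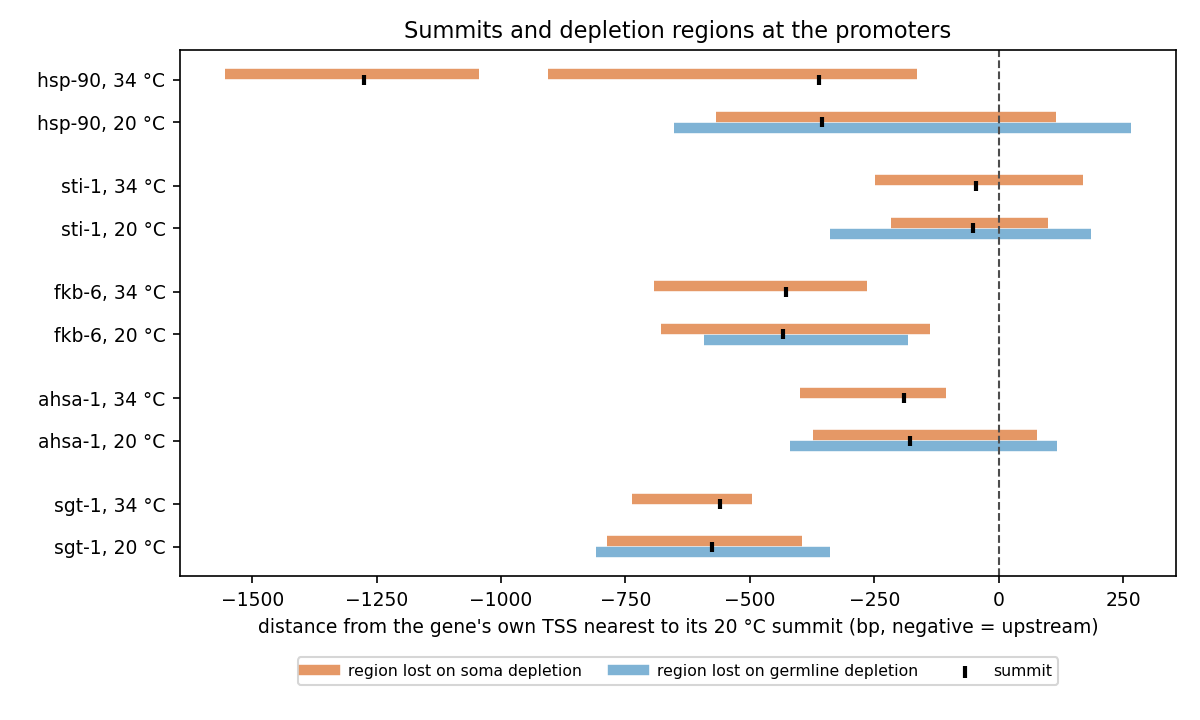
Summits (black ticks) and regions lost on depletion (coloured bars) at the 5 promoters, with the distance from the gene's own TSS nearest to its 20 °C summit in bp on the horizontal axis and 34 °C above 20 °C for each gene. Each 20 °C summit had a counterpart 6 to 16 bp away at 34 °C, a region lost on germline depletion was listed at 20 °C alone, and the added hsp-90 summit stands at the far left.

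The 5 sites thus kept their place between the temperatures. The shift was 6 bp at hsp-90, sti-1 and fkb-6, 11 bp at ahsa-1 and 16 bp at sgt-1, and all 5 remained matched when summits had to lie within 50 bp. Of the 190 promoter summits at 20 °C, 100 had a summit at 34 °C within 100 bp (52.6%). In the shared class matches were more common, and 16 of its 76 promoter sites at 20 °C had none (21.1%). Counting a site in a class at each temperature needs such a match, so the 5 matches are not separate from the class pair. By gene, 0.811% of protein-coding genes had a common summit within 1000 bp at 34 °C and 1.27% at 20 °C.

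Of the 5 promoters, 4 held the TSS of a divergent neighbour within 1000 bp of the summit. These neighbours were C47E8.4 at hsp-90, F31D4.2 at fkb-6, C01G10.7 at ahsa-1 and btbd-10, whose protein has a BTB domain by its name, at sgt-1. The btbd-10 TSS was 652 bp from the summit at 34 °C and 636 bp at 20 °C, and that of C47E8.4 nearest to the main hsp-90 summit 313 bp and 319 bp. Among all promoter summits, 29.5% at 34 °C and 34.2% at 20 °C had TSSs of 2 or more genes that near, in any orientation. Paired genes were not particular to the set among sites in the shared class at 20 °C and the soma class at 34 °C. Of the 5 such sites most like the set, ranked below, icd-1 with vps-32.1 and Y55F3AR.2 with cct-8 had them too. The sites of Y62F5A.12, bag-1 and act-2 had a single gene. Binding data alone do not tell which gene of such a pair HSF-1 acts on.

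The peak scores put the set in a different part of the list at each temperature. At 34 °C the 5 main sites ran from the 0.68th to the 47.4th percentile of all summits (median 12.0), where a percentile is the share of summits at or below the score. At 20 °C they ran from the 37.0th to the 85.2nd percentile (median 50.8). The order of the genes was hsp-90, fkb-6, sti-1, ahsa-1 and sgt-1 at 34 °C, and at 20 °C it differed by the exchange of sti-1 and fkb-6 alone. With no values per library, it cannot be said which neighbours in these orders differ beyond error.

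**Figure D3:**
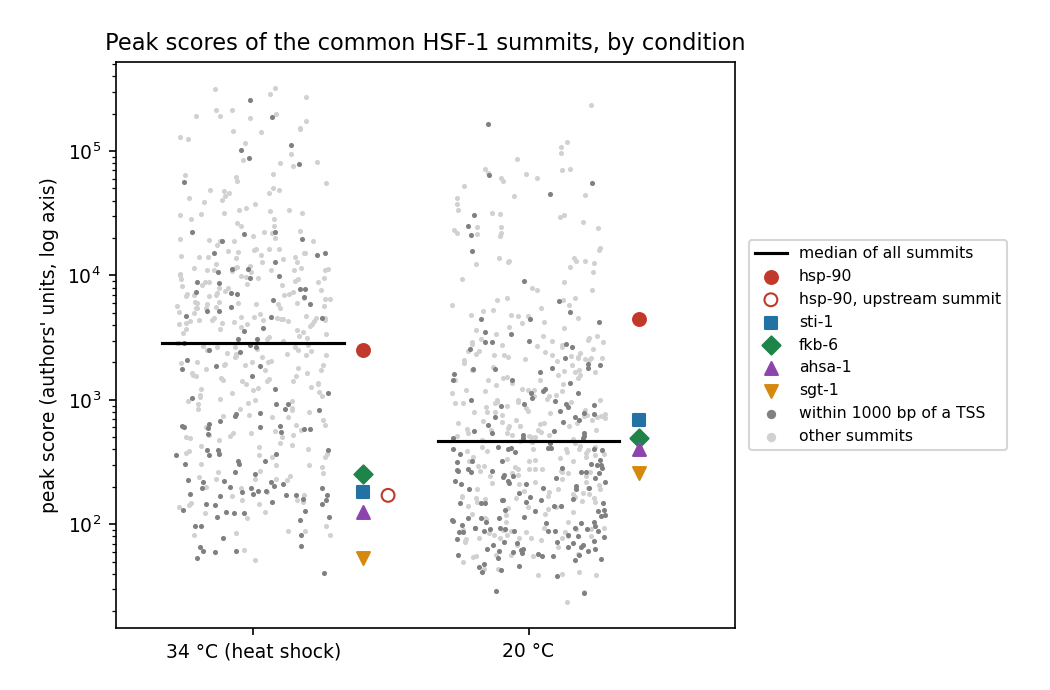
Peak score of every common HSF-1 summit on a log axis at 34 °C (left) and 20 °C (right), with dark grey points within 1000 bp of a protein-coding TSS, light grey points elsewhere, a black line at the median and coloured symbols for the 5 genes. At 34 °C all 6 sites of the set lie below the median of 2884, and at 20 °C hsp-90, sti-1 and fkb-6 lie above the median of 470.5.

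Because the lists differ in length, the ranks were also taken among the 350 summits listed at both temperatures, which are the same sites in each. In this set hsp-90 ranked 224 at 34 °C and 72 at 20 °C. The ranks of sti-1 were 329 at 34 °C and 204 at 20 °C, and those of fkb-6 were 319 and 240. ahsa-1 ranked 338 at 34 °C and 257 at 20 °C, and sgt-1 ranked 349 and 291. All 5 genes stood lower in the order at 34 °C than at 20 °C. So did 41.4% of the 350 sites, 54% of the 100 that were promoter sites at 20 °C, and 81.5% of the 27 promoter sites in the soma class at 34 °C and the shared class at 20 °C. Each of these shares counts the 5 genes in. A lower rank says that other sites had higher scores, and does not say that less HSF-1 was bound.

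Each loss listed on depletion has a differential score. Its header calls it a negative log p-value, without a base, so it is not a measure of how much HSF-1 was lost. The soma score at 34 °C was 56.5 at the main hsp-90 site, 43.5 at sti-1, 33.6 at fkb-6, 18.6 at ahsa-1 and 13.4 at sgt-1. Among the 48 promoter sites of the soma class, whose median was 49.9, these ranked 22, 28, 33, 44 and 47. The lowest soma score in that class was 13.2, so sgt-1 stood at the floor here too.

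At 20 °C the soma score was 80.95 at hsp-90, 40.8 at fkb-6, 34.1 at sti-1, 24.2 at ahsa-1 and 22.3 at sgt-1. The 76 promoter sites of the shared class had a median of 28.1, and the genes ranked 15, 26, 32, 44 and 51 among them. hsp-90, fkb-6 and sti-1 thus lay above the middle of their class and ahsa-1 and sgt-1 below it. The scores at the 2 temperatures come from separate comparisons and were not set against each other.

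The germline score at 20 °C was 151.5 at hsp-90, 68.0 at sgt-1, 61.2 at sti-1, 54.6 at ahsa-1 and 27.1 at fkb-6. In the shared class as a whole the median was 341, and at its promoter sites 117. Among the 76 promoter sites the genes ranked 31, 48, 49, 52 and 66. The co-chaperone genes were all below the promoter median, and hsp-90 was above it. fkb-6, which ranked 26 by the soma score, ranked 66 by the germline score, the widest gap between these orders in the set.

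**Figure D4:**
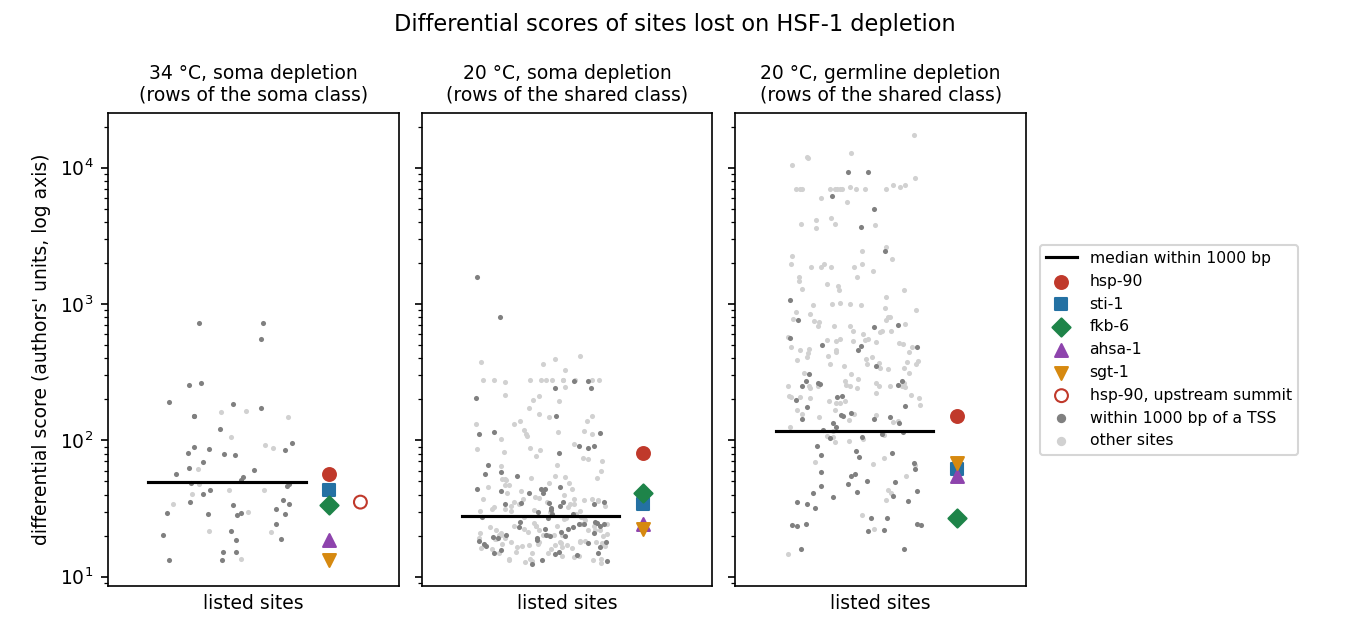
Differential score on a log axis for the soma comparison at 34 °C among soma-class sites (left), and for the soma (middle) and germline (right) comparisons at 20 °C among shared-class sites, with promoter sites in dark grey, other sites in light grey, a black line at the median of promoter sites and coloured symbols for the 5 genes. The 4 co-chaperone genes lie below the line in the germline panel, at 27.1 to 68.0 against a median of 117.

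Promoter sites that shared the class pair of the set also had low germline scores at 20 °C. The other 22 sites in the soma class at 34 °C and the shared class at 20 °C had germline scores of 15.95 to 175.5 with a median of 45.1, against 27.1 to 151.5 with a median of 61.2 at the 5 genes. The 28 promoter sites in the shared class at both temperatures ran from 46.4 to 9238 with a median of 310. These 28 sites also had higher peak scores at 20 °C, with a median of 2382, against 768 at the other 22 sites and 495 at the 5 genes. Without the 5 genes, 31 promoter sites had a germline score within their range, and 16 of these were in the soma class at 34 °C (51.6%), against 22 of all 71 others (31%). The part of the germline score or of the peak score in the class at 34 °C was not tested. The lowest germline score listed at 34 °C was 14.3. A germline loss, in the shared or the germline class, was listed for 349 of 441 summits at 34 °C against 421 of 500 at 20 °C. Among promoter summits it was listed for 65 of 129 at 34 °C against 153 of 190 at 20 °C, so fewer promoter sites in general had it at 34 °C. A site that missed the germline list at 34 °C is not shown to have kept its HSF-1 on germline depletion.

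**Figure D5:**
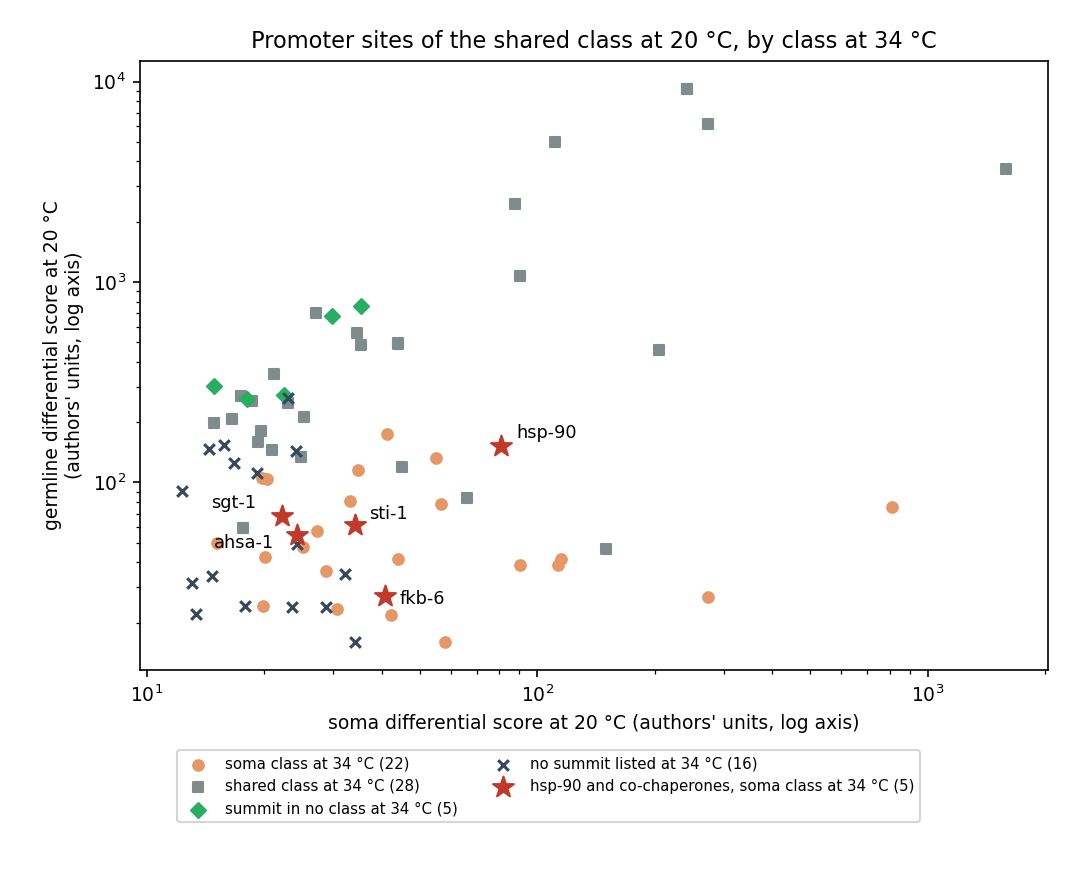
Soma differential score against germline differential score at 20 °C, both on log axes, for the 76 promoter sites of the shared class, with symbols by their class at 34 °C and red stars for the 5 genes. The stars lie among the sites of the soma class at 34 °C, whose germline scores reach no higher than 175.5, while sites of the shared class at 34 °C extend to 9238.

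The regions lost on depletion were widest at hsp-90 at both temperatures. The soma region at 34 °C spanned 741 bp at the main hsp-90 site, 430 bp at fkb-6, 420 bp at sti-1, 295 bp at ahsa-1 and 241 bp at sgt-1. At 20 °C it spanned 683 bp at hsp-90, 541 bp at fkb-6, 451 bp at ahsa-1, 394 bp at sgt-1 and 316 bp at sti-1. At hsp-90 the soma region ran from 905 to 165 bp upstream of the downstream TSS at 34 °C, and from 568 bp upstream to 114 bp downstream at 20 °C. The germline regions at 20 °C spanned 411 bp at fkb-6 to 919 bp at hsp-90, and at fkb-6 alone the germline region was narrower than the soma region.

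The sites most like the set were sought among the 22 other promoter sites with the same pair of classes. Likeness was the Euclidean distance to the set's median over the log10 values of 5 measures, the peak score and soma differential score at both temperatures and the germline score at 20 °C. The closest was the site 420 bp from the TSS of Y62F5A.12, at a distance of 0.30. It was followed by the site of bag-1, which encodes a nucleotide exchange factor of HSP70, at 0.33, and that of icd-1, a subunit of the nascent polypeptide-associated complex, and vps-32.1, an ESCRT-III subunit, at 0.37. Next came act-2, an actin gene, at 0.49, and a site at Y55F3AR.2 and the chaperonin subunit gene cct-8 at 0.50. The Y62F5A.12 and icd-1 sites lie on chromosome II and the cct-8 site on IV, where the fit of coordinates to the annotation was seen at neither temperature. Within the set itself the distance was 0.18 at sti-1, 0.35 at ahsa-1, 0.39 at fkb-6, 0.75 at sgt-1 and 1.60 at hsp-90. The median is that of these same 5 sites, so a gene's closeness to it is partly built in. Even so, hsp-90 and sgt-1 stood farther from the set's median than the 5 other sites named here did.

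In a list of 18 further genes of the HSP90 system, 1 gene had a site by the same distance rule. Such a site was listed for 0.811% of all protein-coding genes at 34 °C and 1.27% at 20 °C. In a list of 18 genes, 1 gene with a site is too small a count to set against these shares. Among the 17 without a summit were daf-41, which encodes the p23 co-chaperone, cdc-37, which encodes the kinase-loading co-chaperone, pph-5, a protein phosphatase that binds HSP90, unc-45, a myosin chaperone, chn-1, the CHIP ubiquitin ligase, and aipr-1, tomm-70 and ttc-4, which encode repeat proteins. The same held for enpl-1 and hsp-75, which encode the HSP90 forms of the endoplasmic reticulum and the mitochondria, and for fkb-1, fkb-2, fkb-3, fkb-4, fkb-5, fkb-7 and fkb-8. The gene with a summit was hip-1, which encodes the HSP70-interacting protein HIP.

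The hip-1 summit lay 17 bp upstream of its TSS at 34 °C and 35 bp at 20 °C, at positions 13622509 and 13622527 on chromosome III, where the fit of coordinates to the annotation was seen at 20 °C but not at 34 °C. It was in the soma class at 34 °C, with a soma score of 48.4, and in the germline class at 20 °C, with a germline score of 54.95. Its class at 20 °C thus differed from that of the 5 genes, and no loss on soma depletion was listed for it at that temperature. The peak score was 602 at 34 °C, at the 27.9th percentile of all summits, and 267 at 20 °C, at the 38.8th percentile. The myosin light chain gene mlc-5 started 805 bp from the summit at 34 °C and 787 bp at 20 °C.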

How the data were processed

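The authors' files were 2 lists of common summits with a peak score and 6 lists of sites lost on depletion, which add a differential score, per the file headers. Each deposited score was used as given. Per the submitters' processing notes, Bowtie2 and MACS2 were used, with no version named. No source used here gives the genome build. Peak names carry the strain JTL611, and whether replicates were pooled is not stated. The labels describe 40 libraries, of which the 16 RNA polymerase II and 8 input libraries were not analysed here. Nothing in the labels says that replicates came from separate cultures.

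Repeated rows (8, in the germline list at 34 °C) were dropped. Summits were assigned through any protein-coding TSS within 1000 bp in the Ensembl release 115 annotation of WBcel235, and summits within 100 bp counted as the same site. Of soma-class summits at 34 °C on chromosome V, 16 of 22 lay within 300 bp of a TSS as deposited, against 9 after a shift of 500 bp to the left and 7 after the same shift to the right. On II the counts were 5 of 12, against 7 and 3, and on III 4 of 8, against 4 and 3. For soma- and shared-class summits at 20 °C they were 18 of 76 on V, against 12 and 12, 7 of 36 on II, against 7 and 6, and 12 of 33 on III, against 8 and 7. On I the counts were 6 of 10 at 34 °C, against 2 and 2, and 10 of 41 at 20 °C, against 7 and 9. On IV they were 5 of 9, against 5 and 4, and 9 of 75, against 13 and 10. On X they were 0 of 3, against 0 and 0, and 1 of 28, against 2 and 1. The shares over promoter summits were not limited to chromosomes where a fit was seen.

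The 5 genes, the list of 18 further genes, the rule for named genes (the set, genes at its summits, list genes with a summit, and the 5 most alike sites) and the alternatives were chosen with earlier results of these data known. Intervals of shares are exact binomial 95% intervals. Matching, TSS assignment and percentiles were tested on simulated data. Computations used Python 3.11.15 with pandas 2.3.3, numpy 2.4.6, scipy 1.17.1 and matplotlib 3.10.9.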

Additional observations from a re-analysis of the deposited data

How the results depend on the processing

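No paired analysis was possible because the deposited lists give no library its own values, and leaving out replicates was not run for the same reason. The planned search for heat shock elements was not run, because no sequence was used here. Each of the 5 genes kept both classes with a TSS distance of 2000 bp, and 4 did with 500 bp, where sgt-1 dropped out. With the nearest TSS only, 3 genes had a soma-class site at 34 °C (hsp-90, sgt-1 and sti-1), 3 a shared-class site at 20 °C (ahsa-1, sgt-1 and sti-1), and 2 both. With only sites at or above the median peak score of their class, hsp-90 alone stayed, so each of these counts was 1. The median percentile of the peak score was 24.8 at 34 °C and 67.9 at 20 °C among promoter summits, and 6.29 and 31.7 among summits listed at both temperatures, a setting added after seeing the data. The median percentile of the germline score at 20 °C was 14.5 in the whole shared class and 36.8 at its promoter sites. The share of promoter sites of the shared class at 20 °C that were in the soma class at 34 °C was 51.0% with a TSS distance of 500 bp, 22.6% with 2000 bp, and 51.6% among other sites within the germline scores of the set, the last added after seeing the data. All 5 genes still had the same site at both temperatures with a distance of 50 or 300 bp, and the share of promoter sites was 26 of 76 with 50 bp and 27 of 76 with 300 bp. Depth is unknown, so a missing summit or class is not shown to mean a missing signal.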
